A study of Mus musculus with 34 samples.

Results

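Tetrahydrobiopterin is the cofactor of the aromatic amino acid hydroxylases and of the nitric oxide synthases, and this report describes the 6 genes that make, regulate and recycle it, among 33269 genes measured on the arrays. The genes were chosen by name and were found through the RefSeq accession of their probes. They were chosen because Gch1 was lower in goitrogen-treated pups, so that the comparisons of Gch1 that involve goitrogen are given as descriptions with no test. The 6 genes had 8 probes among 41174, a pair each for Gch1 and Pts and 1 each for Gchfr, Spr, Pcbd1 and Qdpr. All 8 probes were well above background in both channels on all 34 arrays.

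Each array measured liver RNA of 1 C57BL/6 pup, collected at postnatal day (PND) 15 and labelled with Cy5, against a universal mouse reference RNA labelled with Cy3. All dams drank water with sucrose. Control pups (4 males, 4 females) had dams without goitrogen and received a saline injection. Hypo pups (4 males, 5 females) received the same injection, and their dams drank methimazole (0.05%) and perchlorate (1%), goitrogens that block the making of thyroid hormone, for 3 days. Hyper pups (5 males, 5 females) had untreated dams and were injected with 50 µg of T4 and 5 µg of T3 per 100 g of body weight. Hypo+ pups (4 males, 3 females) had goitrogen-treated dams and were injected with 20 µg of T4 and 2 µg of T3 per 100 g. Every injection was given 4 h before collection. The paper removed outlier arrays of each sex after hierarchical clustering of their signals, and 17 arrays per sex remained. The group sizes given here are those after this removal. Per the methods, injected goitrogen pups were divided by their measured serum T4 and those with T4 near that of hyper pups were set apart, so that hypo+ pups were in part selected by their hormone level. The goitrogens reached the pups through the dams, and the labels do not name the litters. The paper analysed males and females apart to avoid correlation through the dam, so that the sexes may share litters.

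Tetrahydrobiopterin is made from GTP in a chain of enzymes. GTP cyclohydrolase 1, the product of Gch1, carries out the first step, which is the rate-limiting one. 6-pyruvoyltetrahydropterin synthase (Pts) follows, and sepiapterin reductase (Spr) completes the cofactor. The GTP cyclohydrolase feedback regulator (Gchfr) binds the first enzyme and passes on inhibition by the end product, tetrahydrobiopterin. After each hydroxylation the cofactor is restored by pterin-4-alpha-carbinolamine dehydratase (Pcbd1) and dihydropteridine reductase (Qdpr). The comparisons address which of these steps differ in mRNA level when thyroid hormone is withdrawn or added for a short time.

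The values are log2 ratios of pup liver to reference, normalized by loess within each array. A gene was called where its p, adjusted by Benjamini-Hochberg for the whole array, was under 0.05. The median Cy5 signal of an array was 146 to 199, and pairs of arrays correlated with r between 0.951 and 0.987 over all probes. The hepatocyte markers found on the array (5 of 6, among them Alb and Ttr) had control means of 3.67 to 5.61 on this log2 ratio scale. Dio1, the deiodinase gene that responds to thyroid hormone, fell in hypo pups of both sexes (log2 fold-change of -1.46 in males and -1.77 in females, adjusted p = 0.0124 and 0.00923). Thrsp and Me1, lipogenic genes that also respond to the hormone, had log2 fold-changes of -1.55 and -0.42 in males and -1.48 and -0.46 in females with hypo treatment and passed no test there (lowest adjusted p = 0.0768). Between hypo and hypo+ pups Dio1 rose by 1.52 in males and 2.02 in females (adjusted p = 0.00150 and 0.00201).

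The RNA of 4 arrays stood apart by pancreatic acinar markers. The log2 ratio of Cpa1, a pancreatic carboxypeptidase gene, was 4.38 and 3.85 in control males 832 and 522, 4.07 in control female 831 and 2.41 in hypo+ female 543, and at most 0.53 on the other 30 arrays. All 5 acinar markers of the list were on the array, and 2 of them were well above background on all arrays. The log2 summed Cy5 signal of the list lay between 12.7 and 16.0 in control males and between 11.3 and 13.5 in the other groups, and no acinar marker was called in any comparison. The median log2 fold-change of the 5 markers was -1.13 in hypo and -1.16 in hyper males, and -0.69 and -0.23 in females. Their part in the results was not tested. Without these arrays Dio1 was at -1.40 in hypo males and -1.69 in hypo females and was not called against control (adjusted p = 0.148 and 0.0542), and between hypo and hypo+ pups it was called in both sexes (1.52 and 1.91, adjusted p = 0.00190 and 0.0243). Values without them are also given for Gch1 and Qdpr, for the other members together and for the lists.

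Gch1 lies on chromosome 14 (chr14:47153895-47189413 in GRCm38.p6), and its brighter probe (A_51_P297579) gives the value of the gene here. Because the genes were chosen through Gch1, the 250 bases before its transcription start are shown. Beside them are those of Qdpr, whose values lay on the opposite side in hypo pups. Those of Pcbd1, the member with a thyroid hormone receptor half-site there, are also shown. Matches on either strand (CCAAT reads ATTGG on the other) to the half-site AGGTCA, to its direct repeat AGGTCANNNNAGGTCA, to the CCAAT box and to the cAMP response element TGACGTCA are in capitals. The sequences are those of RefSeq in GRCm38.p6, 5′ to 3′ on the strand of the gene.
Gch1, chr14:47189414-47189663, minus strand: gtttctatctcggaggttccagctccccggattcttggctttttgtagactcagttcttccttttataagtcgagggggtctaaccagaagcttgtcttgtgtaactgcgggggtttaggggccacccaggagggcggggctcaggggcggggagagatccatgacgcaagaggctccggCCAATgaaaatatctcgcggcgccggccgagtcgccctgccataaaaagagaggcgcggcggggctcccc
Qdpr, chr5:45450230-45450479, minus strand: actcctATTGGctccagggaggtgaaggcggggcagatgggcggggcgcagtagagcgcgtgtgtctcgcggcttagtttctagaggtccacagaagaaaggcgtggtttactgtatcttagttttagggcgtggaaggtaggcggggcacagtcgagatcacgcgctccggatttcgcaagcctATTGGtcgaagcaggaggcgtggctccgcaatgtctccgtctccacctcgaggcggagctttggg
Pcbd1, chr10:61089081-61089330, plus strand: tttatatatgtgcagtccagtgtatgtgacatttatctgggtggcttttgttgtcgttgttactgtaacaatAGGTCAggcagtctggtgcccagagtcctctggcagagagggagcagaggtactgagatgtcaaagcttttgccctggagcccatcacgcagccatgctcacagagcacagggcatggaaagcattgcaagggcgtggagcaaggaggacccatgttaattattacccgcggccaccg
In the window of 300 bases that also takes in the first 50 transcribed bases, the half-site was found in 5340 of 32851 promoters (16.3%) and, among the 6 genes, in those of Pcbd1 (starting 178 bases before the start) and Pts (35 bases after it). Its direct repeat was found in 0.0152% of all promoters and in none of the 6. The CCAAT box was present in 37.4% of promoters and in those of Gch1 (starting 70 bases before the start), Gchfr and Qdpr, and the cAMP response element was present in 1.79% and in none of the 6. A match describes the letters of this window and is not a site of binding. Nor does a missing match show that a gene lacks a response element. The paper searched much longer regions and allowed half-sites that differ from AGGTCA.

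Gch1 was lowest in hypo pups and highest in hyper pups of both sexes. In control males its log2 ratios were 2.53, 2.86, 2.90 and 3.04, and in hypo males they were 2.12, 2.19, 2.34 and 2.36. In hypo+ males they were 3.00, 3.06, 3.13 and 3.24, and in hyper males 3.20, 3.34, 3.36, 3.42 and 3.46. All hypo males lay below all controls, all hyper males lay above all controls, and the hypo+ males overlapped both neighbours. In control females the log2 ratios were 2.79, 2.83, 2.91 and 3.14, and in hypo females 2.21, 2.27, 2.34, 2.35 and 2.41. In hypo+ females they were 2.88, 3.22 and 3.33, and in hyper females 3.08, 3.31, 3.41, 3.42 and 3.56. All hypo females again lay below all controls, whereas 1 hyper female lay within the range of controls and the hypo+ females overlapped controls and hyper pups. Both sexes thus had the same order of means, from hypo through control and hypo+ to hyper, in which control and hypo+, and hypo+ and hyper, were neighbours with overlapping pups. As males and females may share litters, this agreement is not an independent repeat.

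**Figure D1:**
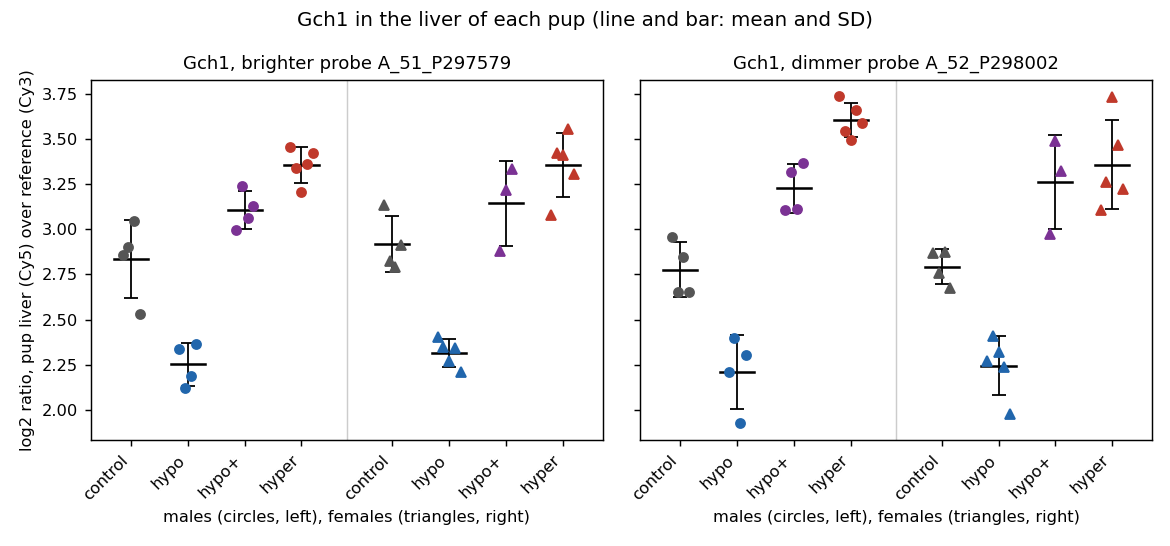
Log2 ratio of Gch1 in pup liver over the reference for the brighter (left) and the dimmer probe (right); each point is 1 pup, circles are males, triangles are females, and lines and bars are group means and SDs. Hypo pups sit between 1.92 and 2.41 on both probes, below all control pups, and hyper pups sit between 3.08 and 3.74.

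As a description, Gch1 was 1.50-fold lower in hypo than in control males (log2 fold-change of -0.58 ± 0.09, SE, n = 4 and 4) and 1.52-fold lower in females (-0.60 ± 0.10, SE, n = 5 and 4). This is the difference by which Gch1 was chosen. The low level was seen in the goitrogen pups that were injected with saline. In hypo+ pups, which had the same goitrogens, Gch1 was above the control mean by 0.27 ± 0.09 (SE) on the log2 scale in males and by 0.23 ± 0.11 (SE) in females. This difference kept its sign but varied in size with single pups and settings. It was 0.17 without control male 391, and in females 0.36 without hypo+ pup 763 and 0.13 without hypo+ pup 601. With median centring it was 0.055 in males, with the slide as a fixed block 0.11 in females, and without the arrays with high acinar markers 0.41 in males and 0.16 in females. Between hypo and hypo+ pups, 4 h after injection, the log2 fold-change was 0.85 ± 0.09 (SE) in males and 0.83 ± 0.11 (SE) in females, and all hypo+ pups were above all hypo pups. Without the arrays with high acinar markers, the log2 fold-change in hypo pups was -0.44 in males, with 2 controls left, and -0.63 in females.

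Gch1 was chosen for its level in goitrogen pups, and the comparison of hyper with control pups shares its controls with that choice. Whether hyper pups also entered the choice is not known, since earlier results of these data were known. Gch1 rose in hyper males by a log2 fold-change of 0.52 ± 0.09 (SE, n = 5 and 4; 1.44-fold, 95% interval 0.33 to 0.71, adjusted p = 0.0350 by limma). In hyper females the log2 fold-change was 0.44 ± 0.10 (SE, n = 5 and 4; 1.36-fold, 95% interval 0.23 to 0.65) and did not pass (adjusted p = 0.135, unadjusted p = 0.000467 by limma). It passed in females when both sexes were fitted together (adjusted p = 0.0493 by limma). This was the only 1 of 13 alternative settings in which it passed. That fit had no term for litters, which the sexes may share. The difference between the sexes in this response was 0.08 ± 0.14 (SE) on the log2 scale, with an unadjusted p of 0.545 and an adjusted p of 1 by limma. Among 41174 probes ranked by p, the brighter and the dimmer probe of Gch1 stood at 27 and 3 in males and at 142 and 110 in females.

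The dimmer probe of Gch1 (A_52_P298002) correlated with the brighter one with r = 0.944 over 34 arrays. Its log2 ratios were 2.65, 2.65, 2.84 and 2.96 in control males and 3.50, 3.55, 3.59, 3.66 and 3.74 in hyper males, with a log2 fold-change of 0.83 ± 0.09 (SE, adjusted p = 0.00158 by limma). In females they were 2.67, 2.76, 2.87 and 2.88 in controls and 3.11, 3.22, 3.26, 3.47 and 3.73 in hyper pups, with a log2 fold-change of 0.57 ± 0.12 (SE, adjusted p = 0.108 by limma). On this probe all hyper pups of both sexes were above all controls, and the share of all probes that did so is not given. Its log2 fold-change in hypo pups was -0.57 in males and -0.55 in females, and in hypo+ pups it was 0.45 and 0.47. All hypo pups were below and all hypo+ pups above all controls of their sex on this probe.

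Arrays of 1 slide allow a difference between neighbouring pups. On the 4 slides that held a hyper and a control male, Gch1 was higher in the hyper male on all 4, by 0.16 to 0.89 on the log2 scale. In females it was higher on 3 of 4 slides, with differences between -0.06 and 0.62, and the dimmer probe was higher in the hyper pup on all 4 slides of each sex. Hypo pups were below the control of their slide on 3 of 3 slides in males and 4 of 4 in females. Hypo+ males were above the control of their slide on 3 of 3 slides, by 0.09 to 0.53, whereas hypo+ females were above it on 1 of 2, with differences of -0.26 and 0.39. The dimmer probe was higher in the hypo+ pup on all of these slides. With the slide as a fixed block, the log2 fold-change of Gch1 in hyper males was 0.51 (adjusted p = 0.132) for the brighter probe and 0.81 (adjusted p = 0.0129) for the dimmer one. Without the arrays with high acinar markers it was 0.66 in hyper males and 0.80 on the dimmer probe (adjusted p = 0.0697 for both, with 2 controls left), and over all genes the number called in this comparison went from 27 to 1. In hyper females it was then 0.41 (adjusted p = 0.317).

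The other 5 genes stayed within narrower ranges. Over the 8 groups the means of Gch1 spanned 1.11 on the log2 ratio scale, against 0.22 for Pts, 0.24 for Pcbd1, 0.26 for Gchfr, 0.34 for Qdpr and 0.39 for Spr. The low end for Gch1 lies in hypo pups, where it was chosen for being low, so that its wider span was in part set in advance. None of the other 5 genes was called in any of the 8 comparisons. The lowest adjusted p among them was 0.429, for Qdpr between hypo+ and hypo females. Compared with control, the share of all genes called was 0.108% in males and 0.171% in females with hypo treatment, 0.0812% in hyper males and 0.186% in hyper females, and 0.0271% in hypo+ males and 0.021% in hypo+ females. Between hypo+ and hypo pups it was 0.406% in males and 0.619% in females. In hyper males 1 of 6 members was called, Gch1, beside 0.0812% of all genes. Gch1 was chosen by its level in hypo pups against the same controls, so that this count is no measure of the pathway. In hyper females 0 of 6 were called, and 0 of 5 in each comparison that involved goitrogen. At an unadjusted p under 0.05 stood, besides Gch1, Qdpr in hypo males, in hypo females and between hypo+ and hypo pups of each sex, and Pts in hypo females. The share of all genes at this cut is not given for these comparisons, so that these members cannot be set against it. Without the arrays with high acinar markers, the log2 fold-changes of Gchfr, Pts, Spr and Pcbd1 lay between -0.30 (Spr in hypo males) and 0.31 (Gchfr in hypo males) over the 8 comparisons, and none was called (lowest adjusted p = 0.773).

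**Figure D2:**
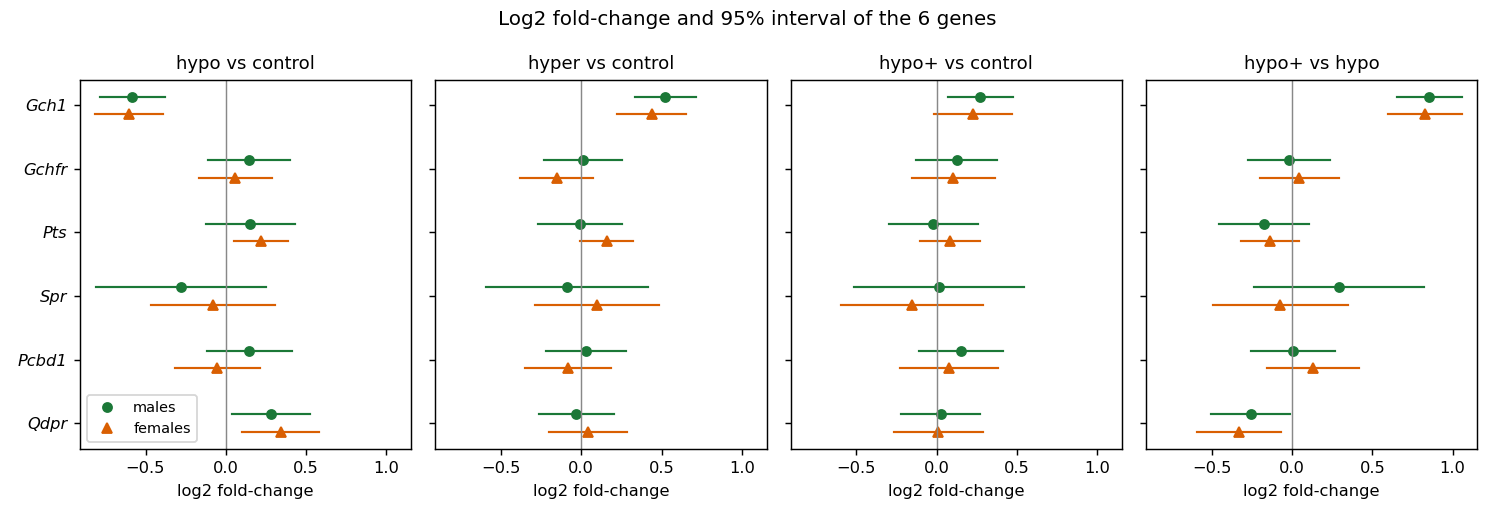
Log2 fold-change of the 6 genes in the 4 comparisons named above the panels, for males (circles) and females (triangles), with 95% intervals from the fit. Gch1 sits at -0.58 and -0.60 in hypo and at 0.52 and 0.44 in hyper pups, while the other 5 genes lie between -0.33 and 0.34 in every comparison; Gch1 is a description in the 3 panels that involve goitrogen.

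Gchfr, the regulator that binds the product of Gch1, lies on chromosome 2 (chr2:119167788-119172389). Its log2 ratio was 3.29 ± 0.25 (SD, n = 4) in control, 3.44 ± 0.21 in hypo, 3.42 ± 0.10 in hypo+ and 3.30 ± 0.14 (n = 5) in hyper males. In females the means ran from 3.25 in hyper to 3.51 in hypo+ pups, and the pups of all groups overlapped the controls. In the comparison in which Gch1 rose, the log2 fold-change of Gchfr was 0.01 in males (95% interval -0.23 to 0.25) and -0.15 in females (-0.38 to 0.07). The upper ends of these intervals lie below the lower ends of those of Gch1 in the same comparison, 0.33 and 0.23, in both sexes.

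Pts, the gene of the second enzyme of synthesis, lies on chromosome 9 (chr9:50521617-50528716) and was measured by a pair of probes that correlated with r = 0.902 over 34 arrays. Its log2 fold-change in hyper pups was -0.01 in males (95% interval -0.27 to 0.26) and 0.16 in females (-0.01 to 0.32). In hypo pups it was 0.15 in males and 0.22 ± 0.08 (SE) in females, where the unadjusted p was 0.0127 and the adjusted p 0.690 by limma. The hypo females, at 1.65, 1.70, 1.72, 1.89 and 1.95, were all above the control females, at 1.47, 1.57, 1.59 and 1.62. On slides with both, the hypo female was higher than the control on 4 of 4. On the dimmer probe the same groups did not overlap either (log2 fold-change of 0.21, unadjusted p = 0.0418, adjusted p = 1 by limma). How many of all probes separated hypo from control females is not given. In males the hypo and control pups overlapped on both probes.

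Spr, the gene of the last enzyme of synthesis (chr6:85133680-85137764), varied most between pups of 1 group. Its log2 ratios in control males were 1.67, 2.16, 2.25 and 2.85, a spread of 0.48 (SD), and those of the 5 hyper males ran from 1.78 to 2.78. Its log2 fold-changes lay between -0.28, in hypo males, and 0.29, between hypo+ and hypo males. The 95% interval in hyper pups was -0.59 to 0.41 in males and -0.29 to 0.48 in females, so that the change of Gch1 in hyper females, 0.44, lay within the interval of Spr in that sex. The groups of Spr overlapped in all 8 comparisons.

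Pcbd1, which acts first in recycling, lies on chromosome 10 (chr10:61089331-61094329). Its group means ran from 3.40 in control males to 3.64 in hypo+ females, and its groups overlapped in all 8 comparisons. The log2 fold-change in hyper pups was 0.03 in males (95% interval -0.22 to 0.28) and -0.08 in females (-0.35 to 0.18). In hypo pups it was 0.15 in males and -0.05 in females.

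Qdpr, the reductase gene that completes recycling, lies on chromosome 5 (chr5:45434032-45450229), and its hypo means were its highest in both sexes. The log2 ratios were 1.71, 1.89, 2.05 and 2.18 in control males and 2.12, 2.21, 2.30 and 2.33 in hypo males. In females they were 1.77, 1.79, 1.84 and 2.21 in controls and 2.03, 2.15, 2.24, 2.39 and 2.40 in hypo pups. In each sex 1 control pup, the one with the highest value, reached into the range of the hypo pups. The log2 fold-change in hypo pups was 0.28 ± 0.12 (SE, 95% interval 0.04 to 0.53, unadjusted p = 0.0267, adjusted p = 0.841 by limma) in males and 0.34 ± 0.11 (SE, 0.10 to 0.58, unadjusted p = 0.00847, adjusted p = 0.599 by limma) in females. On the slides that held both, the hypo pup was higher than the control on 3 of 3 in males and 3 of 4 in females.

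In hypo+ pups the log2 ratio of Qdpr was 1.98 ± 0.24 (SD, n = 4) in males and 1.91 ± 0.07 (SD, n = 3) in females, against control means of 1.96 and 1.90. Compared with hypo pups, the log2 fold-change was -0.26 in males and -0.33 in females (adjusted p = 0.510 and 0.429 by limma). All hypo+ females were below all hypo females, but the share of all probes that separated these groups is not given. Hyper pups had log2 fold-changes of -0.03 and 0.04. The highest control pup of each sex, male 832 and female 831, was among those with high acinar markers. Without these arrays the log2 fold-change in hypo pups was 0.36 in males and 0.45 in females (adjusted p = 0.979 and 0.275).

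**Figure D3:**
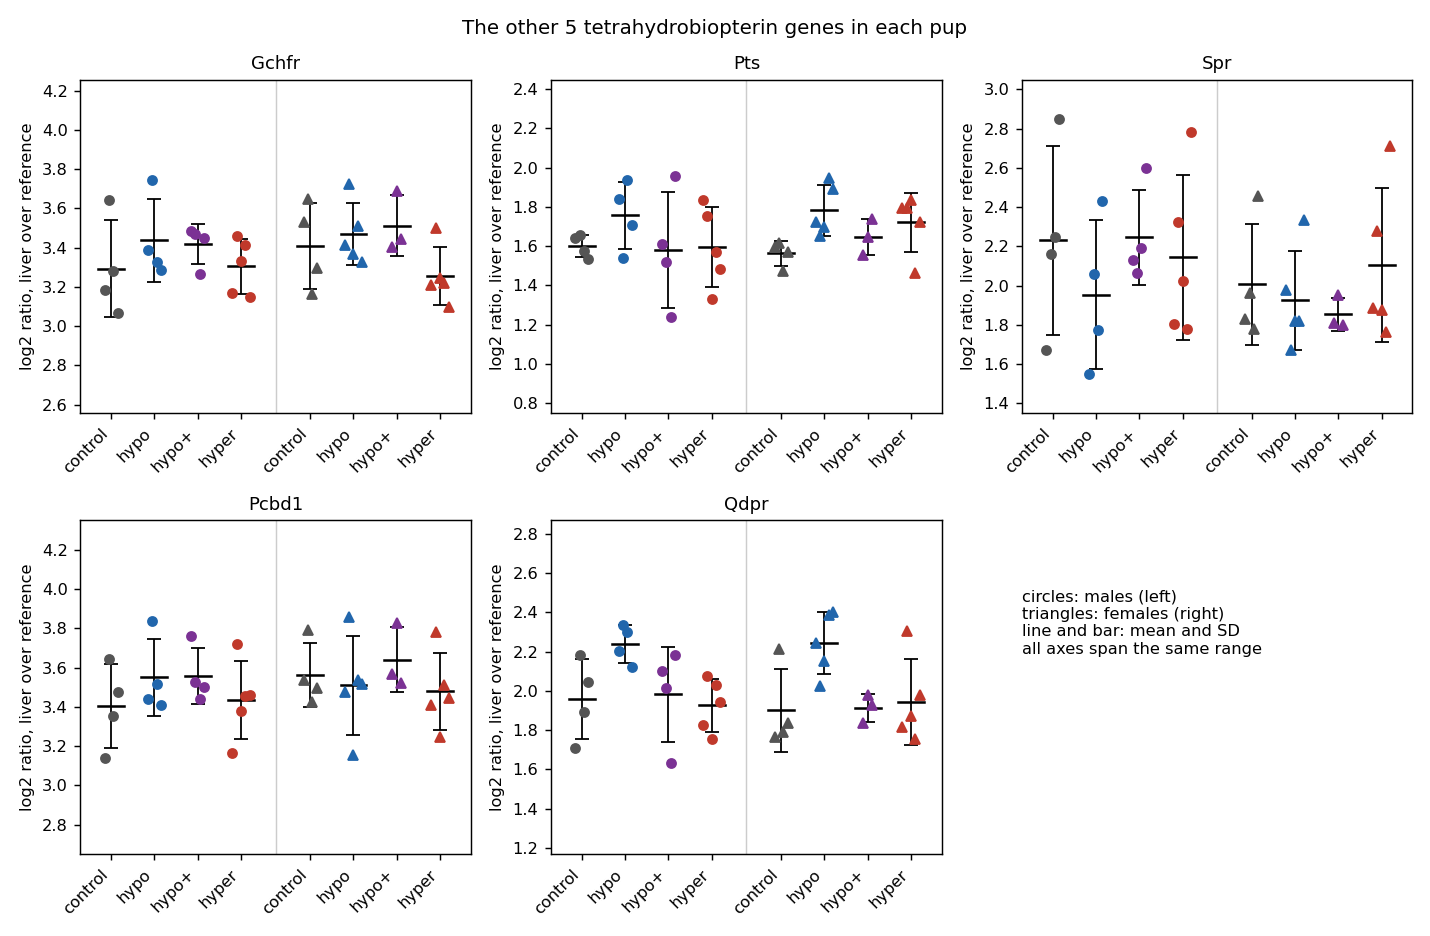
Log2 ratio of Gchfr, Pts, Spr, Pcbd1 and Qdpr in pup liver over the reference, 1 point for each pup, with group means and SDs; all axes span the same range. The hypo pups of Qdpr sit between 2.03 and 2.40, and Spr has the widest spread within groups, up to an SD of 0.48.

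No sex difference in response passed the test for any of the 6 genes (0 called at an adjusted p under 0.05 by limma for each treatment, and 0 at an unadjusted p under 0.05). Over all 33269 genes the share called in this test was 0% for each treatment, and 1.28%, 1.54% and 1.64% of genes had an unadjusted p under 0.05 for hypo, hyper and hypo+, so that the 0 says nothing particular about the members. For Gch1 only the hyper response was tested. The log2 fold-changes of Gch1 in males minus those in females were 0.02 for hypo and 0.05 for hypo+ pups. The lowest adjusted p over all tested members and treatments was 0.9999.

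The genes around the pathway were described by lists chosen for their function. No gene of these lists was called in any of the 8 comparisons, with or without the arrays with high acinar markers. With all arrays the share of all genes called was 0.021% to 0.619%, so that this absence says nothing particular about the lists. Of 7 enzymes that use tetrahydrobiopterin, all were on the array, but only Nos3, the endothelial nitric oxide synthase gene, was well above background on all 34 arrays. Th was well above background on 2 arrays, Tph2 on 4, Nos1 on 10, Nos2 on 11, Tph1 on 30 and Agmo on none. The log2 fold-change of Nos3 was -0.17 ± 0.08 (SE) in males and 0.00 in females with hypo treatment, and -0.13 and -0.04 in hyper pups. Over the 7 enzymes the median was 0.00 for males and -0.02 for females with hypo treatment, beside 0.00 in both sexes over all probes.

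Of the 9 genes of related steps and partners, 7 were found on the array, all well above background. Dnajc12, a co-chaperone of the hydroxylases, had a log2 fold-change of 0.27 ± 0.11 (SE) in hypo males and 0.44 ± 0.16 (SE) in hypo females (unadjusted p = 0.0228 and 0.0145, adjusted p = 0.794 and 0.720 by limma). Cbr3, a carbonyl reductase gene, had 0.25 ± 0.15 and 0.31 ± 0.12 (SE) in hypo and -0.10 ± 0.14 and -0.28 ± 0.12 (SE) in hyper pups of each sex (lowest adjusted p = 0.734). For Cbr3 the highest hyper female (log2 ratio of -1.741) lay just below the lowest control female (-1.735). The share of all probes that separated these groups is not given. Xdh, the xanthine dehydrogenase gene, had 0.06 and 0.09 in hypo and -0.02 and -0.10 in hyper males and females. The medians of this list were 0.06 and 0.13 in hypo and -0.02 and -0.07 in hyper pups.

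Of the 6 genes that supply GTP, the substrate of the first step, Gmps, a GMP synthetase gene, had the largest mean change in hyper pups, with log2 fold-changes of 0.21 ± 0.11 and 0.28 ± 0.13 (SE) and unadjusted p-values of 0.0630 and 0.0438 (adjusted p = 1 and 0.795 by limma). In hypo pups it had 0.18 and 0.08. Impdh2, an IMP dehydrogenase gene, had 0.04 and 0.09 in hyper pups, and Nme1, a nucleoside diphosphate kinase gene, had -0.13 and -0.10 in hypo pups. The medians of this list were 0.03 and 0.06 in hyper males and females.

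The 5 genes of tyrosine breakdown had opposite signs in hypo males and females. In hypo males all lay between 0.15 and 0.34, with a median of 0.19, and in hypo females between -0.11 and -0.01, with a median of -0.07. In hyper females they lay between -0.21 and -0.08, and in hyper males between -0.04 and 0.18. Tat, the tyrosine aminotransferase gene, had 0.34 ± 0.14 (SE) in hypo males (unadjusted p = 0.0231, adjusted p = 0.801 by limma) and -0.01 in hypo females. Hpd, the gene of the next enzyme, had 0.29 ± 0.29 and -0.11 ± 0.24 (SE), and Hgd and Gstz1, which act after it, had -0.21 and -0.10 in hyper females and 0.01 and -0.04 in hyper males. The difference between the sexes was not tested for these genes. Without the arrays with high acinar markers the 5 genes lay between 0.24 and 0.54 in hypo males and between -0.01 and 0.07 in hypo females, where only Fah was below 0 and none was called. The 5 hepatocyte markers, which include Tat, had medians of 0.32 in hypo males and -0.10 in females, and their part in these values was not tested.

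**Figure D4:**
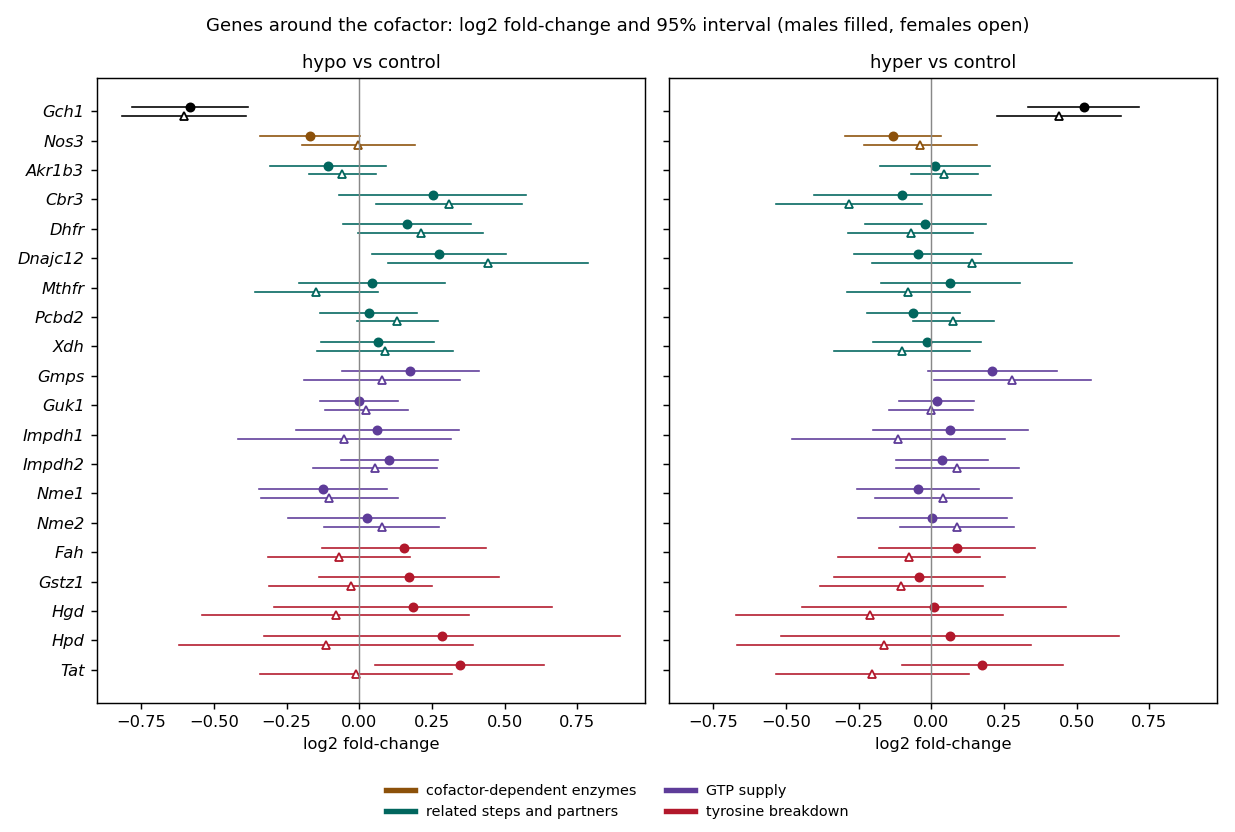
Log2 fold-change with 95% interval for Gch1 (black) and for the genes of 4 lists around the cofactor that were well above background on all arrays, in hypo (left) and hyper pups (right) against control; males are filled circles and females open triangles. Gch1 lies at -0.58 and -0.60 on the left and 0.52 and 0.44 on the right, and none of the coloured genes was called.

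The genes whose pattern was most like that of Gch1 were sought among 15697 named probes well above background on all arrays, by Pearson's r over the 34 arrays after the mean of each sex was subtracted. They were Sbk1 (r = 0.925), Sned1 (0.919), Bmf (0.918), Nudt7 (0.916) and Frmd8 (0.916). These values are descriptions, since the arrays share reference, slides and treatments and since Gch1 was chosen for its pattern. With the dimmer probe of Gch1 the same 5 genes had r between 0.914 and 0.932. Bmf, a pro-apoptotic BCL2 family gene, had log2 fold-changes of -1.32 in hypo and 0.88 in hyper males, and of -1.31 and 0.80 in females. Nudt7, a peroxisomal coenzyme A hydrolase gene, had -0.89 and 0.91 in males and -1.12 and 0.79 in females. Both thus had wider ranges than Gch1, whereas Sbk1, a kinase gene, had -0.38 and 0.42 in males and -0.37 and 0.38 in females. Of the other members, Qdpr had r = -0.575 with Gch1 by the same measure, Pts -0.245, Gchfr -0.224, Pcbd1 -0.0911 and Spr 0.138.

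**Figure D5:**
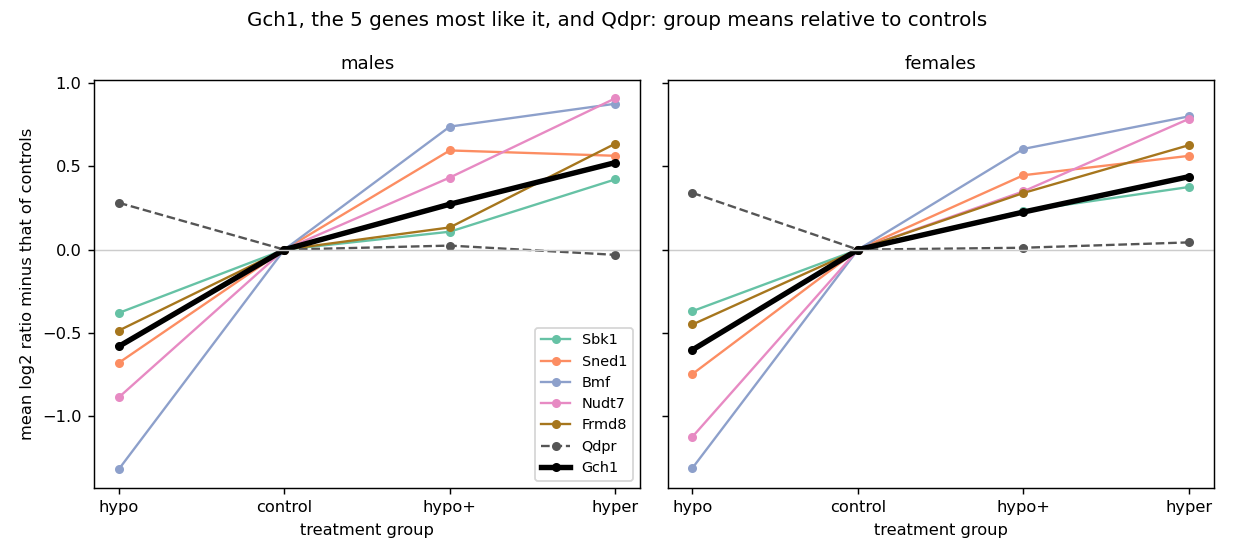
Mean log2 ratio of each group minus that of the controls of the same sex, for Gch1 (thick line), the 5 genes most like it and Qdpr (dashed), with the groups in the order of the Gch1 means; differences of means are plotted without error bars. Gch1 starts at -0.58 in hypo males and -0.60 in females and ends at 0.52 and 0.44 in hyper pups, and Qdpr lies above 0 in hypo pups, at 0.28 and 0.34, and near 0 in the other groups.

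Markers of other cells were read on the same arrays. None of the markers of Kupffer, endothelial, stellate, bile duct, erythroid, neutrophil, lymphoid or acinar cells was called in any comparison. Beside a share of 0.021% to 0.619% of all genes called, this says nothing particular about the markers. The median log2 fold-change of 7 Kupffer and macrophage markers on the array was -0.07 in hypo males, -0.08 in hypo females, 0.10 in hyper males and -0.05 in hyper females. For 6 endothelial markers the medians were -0.14 and -0.07 in hypo and 0.01 and -0.14 in hyper pups. The 6 markers of neutrophils and their precursors had 0.18 and 0.37 in hypo and -0.01 and 0.31 in hyper pups, and their part in the results was not tested. In bulk liver, fewer cells of a type and less RNA in each cell cannot be told apart.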

How the data were processed

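Liver RNA of 34 pups was measured on 2-colour Agilent arrays of 11 slides scanned in 6 sessions. The authors deposited scanner files of Feature Extraction 10.1.1.1 with the median signal intensity of both channels and a log10 ratio, and their own log2 ratio for each spot, whose scale and direction were checked against the scanner log ratios (r of 0.876 to 0.923) and the log2 ratios used here (r of 0.992 to 0.996). The methods name loess normalization in MAANOVA. No dyes were swapped, so that dye bias of a probe stays in its level but not in a difference between groups.

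The median signals were normalized by loess within each array without background subtraction in limma 3.58.1 under R 4.3.3. Control spots and spots marked as non-uniform or as outliers (77 to 212 per array) were left out, and spots of a probe were averaged. Systematic names were matched to symbols by accession in the RefSeq table of GRCm38.p6 (16806 of 33541 names), and the other names were kept. The value of a gene is that of its probe with the highest mean Cy5 signal, and 1 called probe was enough to call its gene. Each sex was fitted by itself with 4 groups and no covariates, with p-values adjusted by Benjamini-Hochberg across the whole array in each comparison and called under 0.05. The sexes were compared in 1 fit of 8 groups. Intervals come from the moderated SE. Without counts, the number of pups sets the precision, and the spread between pups may include litter effects.

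Named are the 6 members, the genes of each list that were called or had the 2 largest mean changes in hypo and in hyper pups, the 5 genes most like Gch1, and Dio1, Thrsp and Me1; other names are given with their values as list members. The members and lists were chosen with earlier results of these data known. Samples were grouped by sex and treatment from their labels. The fits were tested on simulated data. Other background correction and normalization, the deposited ratios, a signal filter, averaged probes, slide or scan blocks, other sample sets and each array left out were tried. No column of another series was used. Some genes of the lists are not reported here.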

Additional observations from a re-analysis of the deposited data

Results flagged for a closer look

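Among 56 sets of 4 or 5 pups (a probe of a member in a group), a single pup lay far from the others in 3, and chance alone marks about 1 in 20. In hypo+ males, pup 761 had the lowest Gchfr log2 ratio, 3.27 against 3.45 for the nearest, a gap of 0.834 of the range of the group. In control females, pup 831 had the highest Qdpr, 2.21 against 1.84, a gap of 0.841 of the range. This pup also had a high log2 ratio of the acinar marker Cpa1, 4.07, and its part in the Qdpr value was not tested. In hyper females, pup 861 had the lowest value on the dimmer probe of Pts, 1.41 against 1.85, a gap of 0.768 of the range.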

How the results depend on the processing

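The precision is limited by 3 to 5 pups in a group. Leaving out the arrays with high acinar markers was chosen after seeing the data. The log2 fold-change of Gch1 in hyper males (0.52, adjusted p = 0.0350) kept its direction under every alternative run but lost its call with normexp background correction (0.40), median centring (0.45), scanner log ratios (0.51), the Cy5 channel alone (0.55), slide (0.51) or scan batch as a fixed block (0.51), only the groups compared (0.52) and without arrays with high acinar markers (0.66). Adjusted p over these and the other alternatives ran from 0.00230 to 1. Leaving out single pups gave 0.42 to 0.59, and the call was lost without control 881, 832 or 391, hyper 864, 784, 696 or 583, or hypo+ 761 or 363 (highest adjusted p = 0.115). The dimmer probe kept its call without any single pup (0.79 to 0.89). In females, leaving out single pups gave 0.39 to 0.51, and 0.44 passed only with both sexes in 1 fit, where 1 member was called in place of 0, as it was with slide as a fixed or random block through the dimmer probe. In hyper males, 0 members in place of 1 were called with normexp correction, median centring, the Cy5 channel alone and without arrays with high acinar markers. The counts of 0 in the other comparisons and in the test between sexes stayed at 0, the latter also with a random block for litters, which the labels do not name and which were guessed from how the animal numbers begin. Of 1920 recomputed fold-changes of members, 104 had the other sign. Those that moved by more than the spread between pups were the following, none of them called. With median centring, Gchfr became -0.035 in hypo and -0.22, Pcbd1 -0.19 and Qdpr -0.26 in hypo+ against control males. With the Cy5 channel alone, Spr became -0.35 and Pcbd1 -0.070 in hypo+ against control males, Spr -0.29 and Pcbd1 -0.22 in hypo+ against hypo males, and Pcbd1 -0.15 and -0.17 in the same comparisons of females. Spr became -0.11 with slide and -0.086 with scan batch as a fixed block in hypo+ against hypo males. The causes were not tested. The groups of a sex share no replicate numbers, so that no pairing by number could be made; pups of 1 slide were compared through the slide as a block.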
